A study of Mus musculus with 12 samples.

Results

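Potassium, calcium and sodium channel genes encode the pore-forming and accessory subunits through which cells set and change their membrane voltage. Members were chosen by gene name alone, as every gene of the deposited peak lists whose symbol follows the naming of the Kcn potassium channel families, the Cacna, Cacnb and Cacng calcium channel families or the Scn sodium channel families. A total of 72 channel genes, out of 15332 gene names, had an m6A peak in at least 1 of the lists. They carried 146 of the 27292 peaks of the OVA list and 146 of the 26102 peaks of the PBS list. RefSeq holds 132 protein-coding mouse genes with such names, so 60 of them had no peak under their own name in either list. Counts of genes below are by name unless the caller's gene, the one on which a peak was called, is mentioned. Over all RefSeq protein-coding symbols, 50.6% had a peak in either list, 47.5% in OVA mice and 46.1% in PBS mice.

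Potassium channels let potassium leave the cell and bring the membrane back toward rest, sodium channels carry the fast upstroke of an action potential, and calcium channels turn a change of voltage into contraction, secretion or gene activity. In the airways, potassium channels of the epithelium supply the electrical drive for fluid secretion, and channels of smooth muscle and of immune cells shape muscle tone and cell activation. The mark m6A is a methyl group on adenosines inside RNA, found mostly around the stop codon and in the 3′ UTR of messenger RNAs, where reader proteins that bind it alter the stability and translation of the transcript.

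The data came from MeRIP-seq of lung, in which RNA fragments are pulled down with an antibody to m6A (IP) and sequenced beside the same RNA without the pull-down (input). All animals were female BALB/c mice aged 6 to 8 weeks. Mice of the OVA group, a model of acute allergic asthma, were sensitised to ovalbumin with alum on days 0 and 7 and then breathed aerosolised 3% ovalbumin for 30 min daily on days 14 to 20, while PBS mice were given PBS alone, without alum, at the same steps. Lungs were taken on day 21 from 3 mice per group, and each mouse gave 1 IP and 1 input library, 12 libraries in all. The authors deposited 1 peak list per group, so no value has a replicate error and no difference between the lists could be tested. The lists hold no read counts, and the depth behind each peak is therefore unknown.

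Each peak has a fold enrichment, its IP signal divided by its input signal, and a log10 p value, which is more negative for a better supported peak. Fold enrichments are ranked here within their own list by percentile, the share of the list's peaks with a lower value. Positions count from 1 and are those of the OVA peak, or of the PBS peak where its value comes first. A peak can be called only where an RNA gave enough reads. The lists do not tell an unmethylated channel RNA from a scarce one, nor fewer cells of a type from less RNA per cell. As a check of the tissue, 5 of 5 ciliated cell markers, 5 of 6 alveolar type 1 markers, 5 of 6 endothelial markers and 4 of 6 alveolar type 2 markers had a peak in both lists. Of the defining lung markers searched, Sftpc, Scgb3a2, Acta2, Marco and Adgre1 had no peak, and Abca3, Pdpn, Cdh5 and Myh11 had peaks only under the names of neighbouring genes. None of 8 neuronal markers, among them Snap25, Syt1 and Uchl1, had a peak under its own name in either list. By the caller's gene, Rbfox3 had weak peaks in both lists and Tubb3 in the OVA list.

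Most of the channel peaks were found in both groups. Of the OVA channel peaks, 33 of 146 had no overlapping peak in the PBS list, or 22.6% (95% Wilson interval 16.6% to 30%), beside 19.4% of all OVA peaks. Of the PBS channel peaks, 31 of 146 had no overlapping OVA peak, or 21.2% (15.4% to 28.6%), beside 14.5% of all PBS peaks. The OVA share lies near that of its list, and the PBS share lies above that of its list. Counted by the caller's gene, the PBS share was 19.76% (14.43% to 26.45%), and its interval just reached the share of all PBS peaks. By gene name, 57 channel genes had a peak in both lists, 5 in the OVA list only and 10 in the PBS list only. Over all gene names with a peak, 11.5% were in the OVA list only and 7.92% in the PBS list only. An FDR under 0.05 held for 144 OVA and 142 PBS channel peaks, beside 98.1% and 97.8% of all peaks. A fold enrichment of at least 2 held for 140 and 136, beside 89.9% and 89.4% of all peaks.

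Channel peaks lay mainly in 3′ UTRs, as m6A peaks of mRNAs usually do. In the OVA list 60.3% of channel peaks were annotated to a 3′ UTR (52.2% to 67.8%), beside 52.7% of all peaks. In the PBS list 63.0% were (54.9% to 70.4%), beside 52.8% of all peaks. The 5′ UTR held 11.6% of the channel peaks in each list, beside 11.6% of all OVA peaks and 11.4% of all PBS peaks. Other exonic sequence held 28.1% of the OVA channel peaks (21.4% to 35.9%), beside 35.7% of all OVA peaks. In the PBS list it held 25.3% (19% to 33%), beside 35.9% of all peaks, a share above the channel interval. With protein-coding transcripts only, the UTR shares of the channel peaks moved, and all shares lay near those of all peaks. For other exonic sequence the channel share hardly moved, while the share of all peaks fell. The 5′ UTR then held 22.1% of the OVA channel peaks, beside 20.4% of all such peaks, and 20.2% of the PBS channel peaks, beside 19.8%. The 3′ UTR held 50.6%, beside 51.8%, of the OVA peaks and 54.4%, beside 51.4%, of the PBS peaks. Other exonic sequence held 27.3%, beside 27.8%, and 25.3%, beside 28.8%.

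The median fold enrichment of channel peaks stood above that of all peaks in each list, though in the OVA list its interval reached the value of all peaks. OVA channel peaks had a median fold enrichment of 7.41 (95% interval 5.47 to 9.34), against 5.59 over all OVA peaks. For PBS channel peaks it was 8.22 (6.73 to 10.6), against 5.44 over all PBS peaks. The gap was wider among weakly supported peaks. With a log10 p above -10, the channel median was 4.63 in the OVA list, against 3.365 over all such peaks. In the PBS list it was 7.4, against 3.37. With a log10 p below -100, it was 11.2 against 11.4 in the OVA list and 12.8 against 10.8 in the PBS list. Strong statistical support was less frequent among channel peaks than among all peaks in each list. Among OVA channel peaks 68, or 46.6% (38.7% to 54.6%), had a log10 p above -10, beside 34.9% of all OVA peaks. Among PBS channel peaks 63, or 43.2% (35.4% to 51.3%), did, beside 36.9% of all PBS peaks, which lies inside the interval. At the other end, 15.1% of the OVA channel peaks (10.2% to 21.8%) had a log10 p below -100, beside 27.6% of all OVA peaks, and 17.8% of the PBS channel peaks (12.4% to 24.8%) did, beside 26.4% of all PBS peaks. The read numbers behind these peaks were not available. Peaks found in a single list were mostly of the weakly supported kind. Among the 33 unmatched OVA channel peaks, 31 had a log10 p above -10, and so did 27 of the 31 unmatched PBS channel peaks. Unmatched peaks of any gene were also mostly weak, at 82.8% of those in OVA mice and 91.1% of those in PBS mice.

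**Figure D1:**
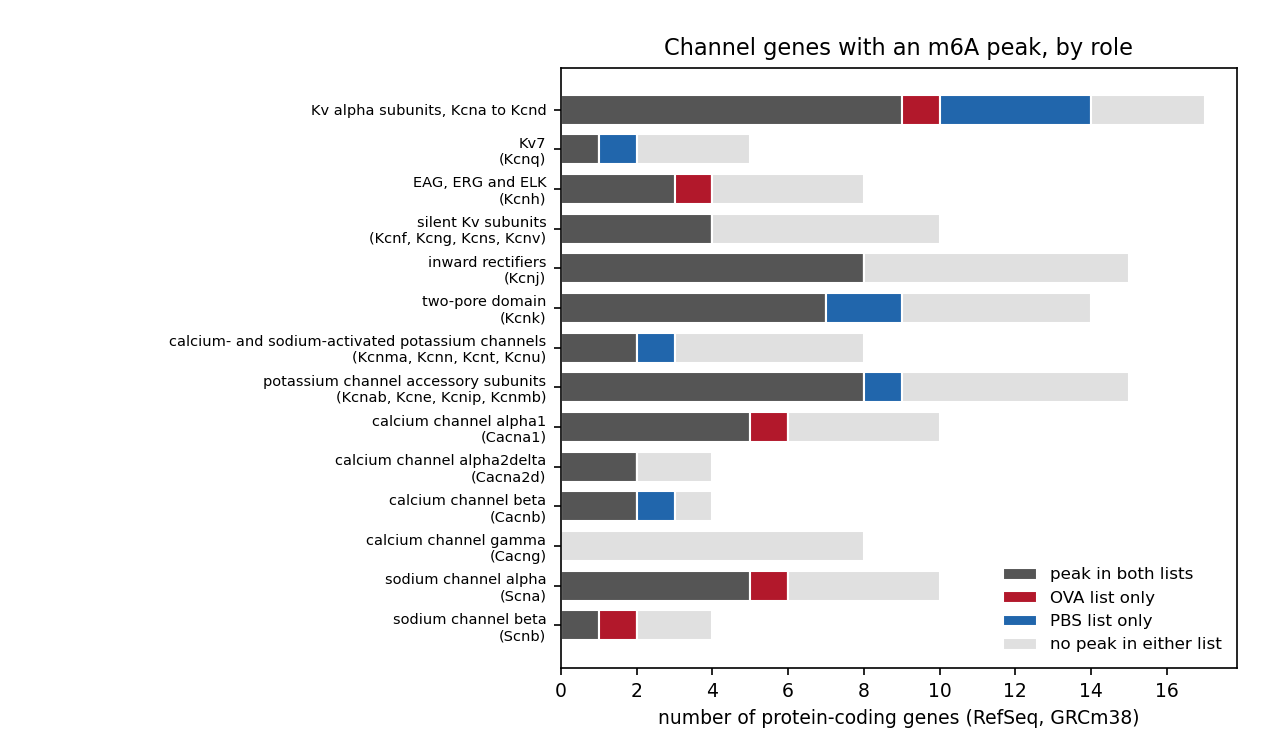
Number of protein-coding channel genes (x axis) in each role (y axis), split into genes with a peak in both lists, in the OVA list only, in the PBS list only, and in neither, counted by gene name. Of 132 genes, 57 had a peak in both lists and 60 in neither; none of the 8 calcium channel gamma genes had one.

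The voltage-gated alpha subunits of the Kcna to Kcnd families, which form the delayed rectifier and transient outward potassium currents, held more peaks than the other roles. Of 17 such genes, 9 had a peak in both lists, 1 in the OVA list only and 4 in the PBS list only, and Kcna7, Kcna10 and Kcnd2 had none by name. A PBS peak called on Kcnd2, a transient outward channel, was assigned to 5330437M03Rik, with a fold enrichment of 13.3 and a log10 p of -3.70. They carried 33 OVA and 39 PBS peaks.

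Kcnd3, which carries a transient outward current in heart and brain, had 3 OVA and 5 PBS peaks. Its leading 3′ UTR peak had a fold enrichment of 21.6 in OVA mice and 53.3 in PBS mice, with nearly equal log10 p values of -27.4 and -25.7. The support for this Kcnd3 peak was thus alike in the groups.

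Kcna3, the channel that holds the membrane potential of effector memory T cells, had a long exonic peak at 107036882 to 107037892 on chromosome 3. This peak had a fold enrichment of 11.2 and a log10 p of -485 in OVA mice, and of 12.2 and -335 in PBS mice. A further Kcna3 peak in the 5′ UTR was called in the OVA list alone, with a log10 p of -3.43. T cell markers were read by name and by the caller's gene. By name, 5 of 5 had a peak in OVA mice and 3 of 5 in PBS mice, where Cd4 and Cd8a were missing. By the caller's gene, 5 of 5 had a peak in OVA mice and 4 of 5 in PBS mice. The lowest log10 p of Cd3e, a marker of all T cells, was by name -15.7 in OVA mice and -30.6 in PBS mice, and by the caller's gene -37.7 and -30.6. By the caller's gene, Cd4 had -27.7 in OVA mice and -9.48 in PBS mice, and Cd3d had -10.4 and -5.96. The most strongly supported marker, Gata3, had a log10 p of -158 in OVA mice and -162 in PBS mice. The part of T cell number in the Kcna3 values was not tested.

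Kcna2, an axonal channel chosen here after its values were seen, had 4 peaks in each list, each matched by a peak of the other. Its leading peak, annotated to the 5′ UTR, had a fold enrichment of 11.7 in OVA mice and 22.2 in PBS mice. The log10 p was -67.2 in OVA mice and -286 in PBS mice. All 4 Kcna2 peaks were longer and better supported in the PBS list. Kcna6, a related channel, had a matched 3′ UTR peak at a fold enrichment of 6.93 in OVA mice and 26.6 in PBS mice, the 57.5th and 97.2nd percentiles. Both calls were weak, with a log10 p of -3.12 and -8.12. A better supported PBS peak called on Kcna6 was assigned to Gm26673, with a fold enrichment of 49.3 and a log10 p of -15.9. Its matching OVA peak, named Kcna6, had 9.24 and -2.38.

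Kcna5, the atrial and vascular smooth muscle channel, was the clearest case of a gene with peaks in a single list. It had 3 adjoining exonic peaks in the PBS list and none in the OVA list, also when peaks were counted by the gene that the caller used. The middle peak (chromosome 6, 126534011 to 126534399) reached a fold enrichment of 48.4 and a log10 p of -15.5. The peaks on its sides had fold enrichments of 10.1 and 11.8. By peak presence, cardiac muscle markers were also seen more in the PBS list, with a peak on 5 of 8 genes against 2 of 8 in the OVA list. By the caller's gene, 4 of 8 had a peak in PBS mice and 1 of 8 in OVA mice. Myh6, Tnnt2 and Pln had peaks in the PBS list only, the best supported being Myh6 with a log10 p of -109. Of the markers with peaks in both lists, Tnni3 was better supported in the OVA list and Ryr2 in the PBS list. Tnni3, whose peaks were called on other genes, had a log10 p of -22.4 in OVA mice and -13.6 in PBS mice, at fold enrichments of 24.6 and 2.75. Ryr2 had a log10 p of -31.5 in OVA mice and -42.6 in PBS mice, at fold enrichments of 10.8 and 5.75. Actc1, Myl7 and Nppa had no peak in either list. The part of cardiac tissue in the Kcna5 peaks was not tested.

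The other Kv genes found in a single list had weak peaks. In the PBS list, Kcna1, an axonal channel, had peaks with fold enrichments of 13.8 and 14.3 and log10 p values of -3.86 and -4.02. Kcnc4, a fast channel with rapid inactivation, had a PBS peak with a fold enrichment of 11.8 and a log10 p of -3.22. The single PBS peak of Kcna4, a transient outward channel, missed an FDR of 0.05. In the OVA list alone, Kcnb2, a delayed rectifier, had a peak with a fold enrichment of 12.3 and a log10 p of -3.35. That gene was not absent from the PBS list, since 4 PBS peaks were called on it and assigned to nearby small nucleolar RNA genes.

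**Figure D2:**
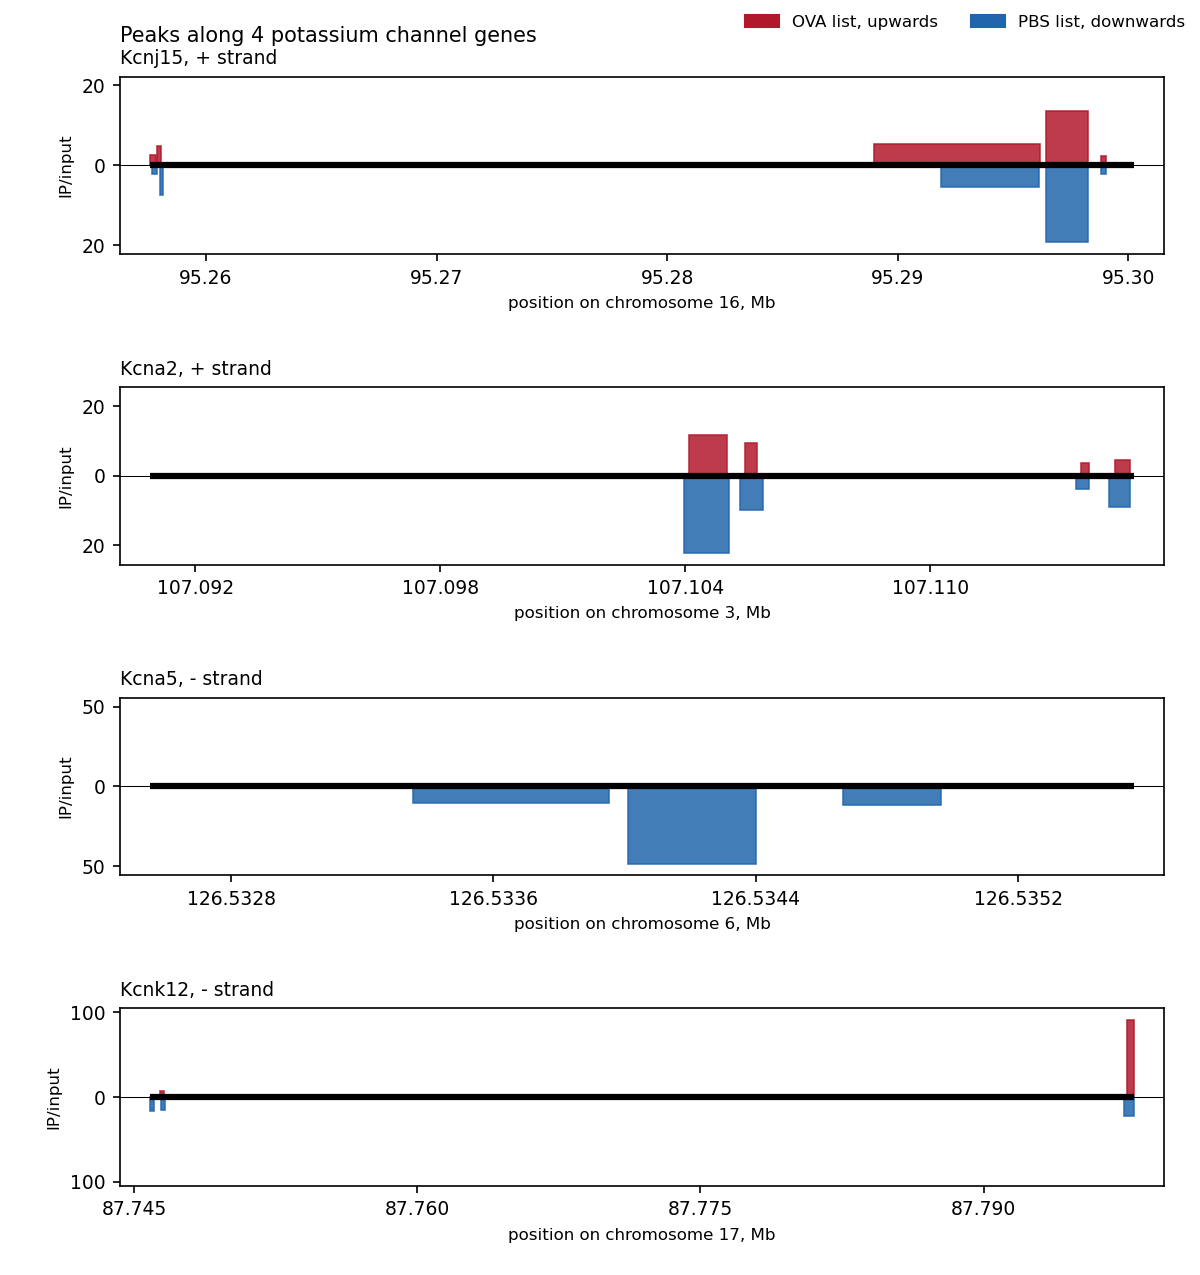
Fold enrichment (IP over input, y axis) of each peak along 4 potassium channel genes, by position on the chromosome in Mb (x axis), with OVA peaks drawn upwards and PBS peaks downwards; bars span a peak from start to end, introns included, and the black line is the RefSeq extent of the gene. Kcnj15 and Kcna2 have matching peaks in both lists, Kcna5 has 3 peaks in the PBS list alone, and the Kcnk12 peak at the transcript start reaches 91.1 in OVA mice and 23.0 in PBS mice.

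The Kcnq channels, which give slow non-inactivating currents in heart, inner ear, epithelia and smooth muscle, were sparsely marked by name. Of 5 genes, Kcnq5 had a peak in both lists. Kcnq5, found in brain and smooth muscle, had a peak over its transcript start with a fold enrichment of 2.57 in OVA mice and 5.63 in PBS mice. These were the 19.9th and 51.1st percentiles. A far stronger 3′ UTR signal was called on Kcnq5 but assigned to Gm36949, a predicted gene. In that stretch the highest fold enrichment was 29.3 in OVA mice and 11 in PBS mice. Kcnq1, which recycles potassium in epithelia, had no peak under its own name. A peak called on Kcnq1 and assigned to Gm27901 had a fold enrichment of 1.98 in OVA mice and 2.08 in PBS mice.

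Of the 8 Kcnh genes, relatives of the ether-a-go-go channel of flies, 3 had a peak in both lists. Kcnh1, a slowly activating channel of brain, had 5 peaks in each list. Its main 3′ UTR peak (chromosome 1, 192505941 to 192506898) reached a fold enrichment of 19.3 and a log10 p of -41.3 in the OVA list. The PBS values were 30.5 and -102. A smaller Kcnh1 peak further along the 3′ UTR went the other way, with a fold enrichment of 9.50 in OVA mice and 3.40 in PBS mice, the 68.4th and 31.9th percentiles. That smaller peak was weakly supported, with a log10 p of -4.99 in OVA mice and -4.11 in PBS mice. By fold enrichment these Kcnh1 peaks thus had opposite orders, but the smaller one rests on weak calls. Kcnh4, a related brain channel, had a peak by name in the OVA list only, with a fold enrichment of 3.39 and a log10 p of -2.45. A different PBS peak called on Kcnh4 was assigned to the neighbouring gene Rab5c.

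The silent subunits, which conduct only when they assemble with other Kv subunits and then change the behaviour of the channel, had some of the highest ratios. Of 10 genes, Kcnf1, Kcng1, Kcng4 and Kcns3 had a peak by name in both lists and the other 6 had none by name. A peak called on Kcng2 in each list was assigned to Gm37015. Their median fold enrichment was 11.5 in OVA mice and 12.1 in PBS mice. Kcng1 had the highest fold enrichment of any PBS peak bearing a channel name, 60.7, against 22.6 for the matching OVA peak, in the 3′ UTR at 168261729 to 168262445 on chromosome 2. An exonic Kcng1 peak had a fold enrichment of 3.19 in OVA mice and 8.39 in PBS mice. Kcns3 had a 3′ UTR peak with identical coordinates in both lists and a fold enrichment of 13.9 in OVA mice and 45.6 in PBS mice. Its exonic peaks had the opposite order, with 6.44 in OVA mice and 4.31 in PBS mice at one and 13.7 and 11.6 at the other. The order thus varied among the silent subunits and within Kcns3. The leading peak of Kcnf1 had a fold enrichment of 46.2 in OVA mice and 12.7 in PBS mice, at a log10 p of -14.7 and -32.0. Its PBS peak was longer and also covered another OVA peak, with a fold enrichment of 4.54. The leading peak of Kcng4 had 42.1 in OVA mice and 17.8 in PBS mice, at a log10 p of -13.3 and -5.72. Its OVA peak was the longer. The ratios of both genes thus compare stretches of unlike length.

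Inward rectifiers pass potassium more easily into the cell than out of it and hold the resting potential. Of 15 Kcnj genes, 8 had a peak in both lists, and none was found in a single list. Their median fold enrichment, 14.3 in OVA mice and 14.8 in PBS mice, stood above that of all channel peaks. Kcnj15, an epithelial channel, had the best supported peak of all channel genes in the OVA list. That 3′ UTR peak, at 95296431 to 95298226 on chromosome 16 in both lists, had a log10 p of -3280 in OVA mice and -1070 in PBS mice. The order of the fold enrichments was the reverse, 13.5 in OVA mice and 19.3 in PBS mice. The next Kcnj15 peak, annotated to the 5′ UTR, had equal ratios in the groups, 5.43 and 5.42, at a log10 p of -1230 and -386. All 5 Kcnj15 peaks of each list overlapped a peak of the other and were better supported in the OVA list.

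Kcnj2, the classical strong inward rectifier of muscle and macrophages, had 3 peaks in each list, all matched. Its longest 3′ UTR peak had a fold enrichment of 23.0 and a log10 p of -540 in the OVA list. The PBS values were 16.6 and -286. The most distal Kcnj2 peak had a fold enrichment of 29.3 in OVA mice and 18.8 in PBS mice. Kcnj2 thus ranked higher in the OVA list at each of its 3 peaks, and was better supported there.

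Kcnj8, the pore of the ATP-sensitive channel of vascular smooth muscle and pericytes, had near equal values. Its 3′ UTR peak had a fold enrichment of 25.2 in OVA mice and 28.6 in PBS mice, at a log10 p of -94.0 and -102. Kcnj12, a strong rectifier of muscle, had a fold enrichment of 31.8 in OVA mice and 40.5 in PBS mice. Kcnj13, a channel of transporting epithelia, had a 3′ UTR peak with a log10 p of -294 in OVA mice and -626 in PBS mice. Its fold enrichments were 15.2 and 20.4. The Kcnj14 peak, with fold enrichments of 34.1 and 29.0, was called on the neighbouring gene Grwd1. A further peak called on Kcnj14 itself, a rectifier of neurons, was assigned to Cyth2 and had a fold enrichment of 51.1 in OVA mice and 66.7 in PBS mice.

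Kcnj3, the atrial channel opened by G proteins and chosen here after its values were seen, had 1 OVA and 3 PBS peaks. The shared 3′ UTR peak had a fold enrichment of 26.7 in OVA mice and 27.5 in PBS mice, at a log10 p of -15.9 and -137. PBS peaks in its 5′ UTR and in an exon had log10 p values of -11 and -13.9. Kcnj3 was thus better supported in the PBS list. The cardiac markers with a peak, given beside Kcna5, were better supported in the PBS list except for Tnni3. The Tnni3 peaks were called on other genes. The part of cardiac tissue in the Kcnj3 values was not tested. Kcnj16, which pairs with Kcnj15 in epithelia, had no peak in either list, under its own name or another.

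The channels of the Kcnk family, which have a pair of pore domains per subunit, carry the background leak of potassium. Of 14 genes, 7 had a peak in both lists, Kcnk2 and Kcnk15 in the PBS list only, and 5 in neither. Kcnk12, a member that gives little current on its own, had the highest fold enrichment of any OVA channel peak. The peak covers the transcript start, at 87797576 to 87797994 on chromosome 17, with a fold enrichment of 91.1 and a log10 p of -62.8. The PBS peak at this start had a fold enrichment of 23.0 and a log10 p of -84.9, and the percentiles were 99.9 and 95.5. The better supported of the peaks thus had the lower rank. Kcnk3, the acid-sensitive channel of pulmonary artery smooth muscle, had 4 OVA and 3 PBS peaks. Its leading 3′ UTR peak had a fold enrichment of 13.4 in OVA mice and 13.8 in PBS mice, at a log10 p of -168 and -308. The last Kcnk3 peak had a fold enrichment of 4.12 in OVA mice and 1.77 in PBS mice, the 39.0th and 6.57th percentiles.

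Kcnk13, a channel known from microglia, gave the widest gap in percentile among all matched channel peaks. Its 5′ UTR peak on chromosome 12 from 99965688 to 99965837 had a fold enrichment of 2.71 in OVA mice and 18.3 in PBS mice, the 22.1st and 91.3rd percentiles. Both calls were weak, with a log10 p of -2.96 and -5.32. The strong signal of this gene was elsewhere, in a 3′ UTR peak called on Kcnk13 and assigned to Psmc1. There the fold enrichment was 29.6 in OVA mice and 14.8 in PBS mice, at a log10 p of -327 and -145. The strong Kcnk13 peak therefore had the opposite order to that weak one. Another weak 5′ UTR peak of Kcnk13 had the order of the strong peak, with a fold enrichment of 9.93 in OVA mice and 5.26 in PBS mice.

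Kcnk6, a channel of macrophages and vascular cells, had a 3′ UTR peak with a fold enrichment of 11.2 in OVA mice and 9.68 in PBS mice, at a log10 p of -343 and -134. Kcnk5, which is opened by alkaline pH in epithelia, had a 5′ UTR peak with a fold enrichment of 4.05 in OVA mice and 5.13 in PBS mice. Its 3′ UTR peak, assigned to Saysd1, had 18.3 in OVA mice and 13.2 in PBS mice. The Kcnk7 peak, with a log10 p of -1440 in OVA mice and -1490 in PBS mice, was called on the adjoining gene Map3k11. That peak may be read as one of Map3k11, since no peak was called on Kcnk7.

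Kcnk2, the stretch-activated channel, appeared in the PBS list only when counted by name. Its 5′ UTR peak there had a fold enrichment of 6.66 and a log10 p of -6.32. A further PBS peak under its name, with a fold enrichment of 8.16 and a log10 p of -42.1, was called on A430027H14Rik and overlapped an OVA peak of that name, so it was not confined to PBS. By the caller's gene Kcnk2 was in both lists, because its 3′ UTR peaks were assigned to 2900042K21Rik. The larger of those had a fold enrichment of 11.4 in OVA mice and 12.6 in PBS mice, at a log10 p of -193 and -290. Kcnk15, a member for which no current is known, had a PBS peak with a fold enrichment of 8.39 and a log10 p of -2.14.

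Among the potassium channels opened by calcium or sodium, Kcnn3 and Kcnn4 had peaks in both lists and Kcnn2 in the PBS list only. Kcnma1, the large-conductance channel of airway smooth muscle, had no peak in either list, nor had Kcnn1, Kcnt1, Kcnt2 and Kcnu1 by name. Kcnn4, the calcium-activated channel of T cells, mast cells and airway epithelium, had 4 OVA and 2 PBS peaks. A pair of overlapping OVA peaks in its 3′ UTR had fold enrichments of 10.5 and 10.7 and a log10 p of -636 each. The better supported of the matching PBS peaks had a fold enrichment of 10.3 and a log10 p of -79.3. The ratio at Kcnn4 was thus alike in the groups while the support differed widely. The OVA list also held a Kcnn4 peak over the transcript start, with a fold enrichment of 3.98 and a log10 p of -9.31, and a further 3′ UTR peak with 2.74 and -25.2. The latter had the lowest p of any OVA channel peak without a PBS match, although it overlapped a matched Kcnn4 peak of its own list.

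Some markers of the cells that use Kcnn4 were also seen more in the OVA list. Beside the T cell markers given with Kcna3, 3 of 8 eosinophil and mast cell markers had a peak in OVA mice and 1 of 8 in PBS mice. Ccr3, the eotaxin receptor, had a log10 p of -254 in OVA mice and -2.70 in PBS mice. Siglecf, Prg2, Epx, Cpa3 and Fcer1a had no peak. The part of these cells in the Kcnn4 values was not tested.

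Kcnn3, a small-conductance channel of endothelium and neurons, pointed the other way. Its exonic peak on chromosome 3 from 89671808 to 89672258 had a fold enrichment of 31.4 and a log10 p of -28.7 in the PBS list. The matching OVA peak had 11.1 and -8.51. A Kcnn3 peak in the 5′ UTR was found in the PBS list alone, with a fold enrichment of 11.7 and a log10 p of -31.6, the lowest p of any PBS channel peak without an OVA match. The PBS peak of Kcnn2, a related channel, had a fold enrichment of 4.56 and a log10 p of -3.58.

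Accessory subunits bind the pore and change its gating or traffic. Of 15 such genes of the potassium channels, 8 had a peak by name in both lists and 6 in neither, and Kcnab3 had a PBS peak that missed an FDR of 0.05 and was called on Trappc1. Kcne3, which keeps Kcnq1 open in epithelia, had a 3′ UTR peak with a fold enrichment of 26.2 and a log10 p of -43.5 in the OVA list. The PBS values were 6.35 and -10.6, so that the percentile was 96.1 against 55.4. This was the widest gap toward OVA among the matched channel peaks that were called on the channel itself. Kcne2, another partner of Kcnq1 in epithelia, had 2 small OVA peaks inside 1 longer PBS peak. Their fold enrichments were 3.85 and 2.12, against 4.58 in the PBS list. Kcne1, the cardiac partner of Kcnq1, had no peak.

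Kcne4, which inhibits several Kv channels, had a 3′ UTR peak with identical coordinates in both lists, at 78817969 to 78818446 on chromosome 1. Its fold enrichment was 26 in OVA mice and 51.1 in PBS mice, while the log10 p was -72.7 and -38.8. Kcnmb1, the subunit that makes the large-conductance channel of smooth muscle more sensitive to calcium, had a 3′ UTR peak with a fold enrichment of 10.5 in OVA mice and 5.98 in PBS mice. The log10 p values were -42.9 and -22.6. Its pore partner Kcnma1 had no peak, so the mark was seen on the accessory subunit alone. The peak of Kcnip2, which binds the Kcnd channels, had a fold enrichment of 29.9 in OVA mice and 5.64 in PBS mice but was called on Armh3, a neighbour.

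The alpha1 subunits of calcium channels form the pore and sense voltage. They had 7 unmatched OVA peaks, narrowly the most of any role, beside 6 of 33 for the Kcna to Kcnd alpha subunits. In the PBS list the Kcna to Kcnd subunits had the most, 13 of 39. Of 10 Cacna1 genes, 5 had a peak in both lists, Cacna1s in the OVA list only, and Cacna1b, Cacna1f, Cacna1g and Cacna1i had none. They held 13 OVA peaks, of which 7 had no PBS match, and 8 PBS peaks, of which 1 had no OVA match. Over all peaks, 19.4% of the OVA list and 14.5% of the PBS list had no match. Each unmatched OVA peak of the alpha1 genes had a log10 p above -10. The matched peaks all lay in 3′ UTRs. Cacna1c, the L-type channel of smooth and cardiac muscle, had a 3′ UTR peak with a fold enrichment of 17.0 and a log10 p of -285 in OVA mice, and of 18.8 and -241 in PBS mice. Cacna1d, the L-type channel of pacemaker and hair cells, had a peak with a fold enrichment of 17.1 in OVA mice and 13.4 in PBS mice, at a log10 p of -250 and -161. The leading peaks of Cacna1c and Cacna1d were thus alike in the groups, while 2 weak Cacna1c peaks had no PBS match.

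The remaining alpha1 genes differed more, in support or in ratio. Cacna1e, the R-type channel of neurons, had a 3′ UTR peak with a fold enrichment of 18.5 in OVA mice and 24.2 in PBS mice. The log10 p was -85.9 in OVA mice and -16.5 in PBS mice. Cacna1h, a T-type channel that opens near rest, had a 3′ UTR peak with a log10 p of -87.8 in the OVA list. The PBS list covered the same stretch with 2 peaks, the better of them at a log10 p of -8.58. Cacna1a, the presynaptic channel, had a 3′ UTR peak with identical coordinates in both lists, at 84639647 to 84640126 on chromosome 8. Its fold enrichment was 7.23 in OVA mice and 29.6 in PBS mice, the 59.0th and 98.0th percentiles, while its log10 p was -44.8 in OVA mice and -15.2 in PBS mice. Cacna1s, the channel of skeletal muscle, had an OVA peak with a fold enrichment of 3.02 and a log10 p of -2.96. Cacna1a, Cacna1e and Cacna1h thus ranked lower in the OVA list, where their support was stronger.

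Beta subunits bring the pore to the membrane, and alpha2delta subunits raise the number of pores there. Cacnb3, the form found in smooth muscle and lymphocytes, had a shared 3′ UTR peak with a fold enrichment of 4.36 in OVA mice and 3.61 in PBS mice, at a log10 p of -99.2 and -51.3. The OVA list held 2 further Cacnb3 peaks, the better with a log10 p of -14.9. Cacnb2, the main cardiac form, had a 3′ UTR peak with a fold enrichment of 5.35 in OVA mice and 6.73 in PBS mice. Cacnb1, the form of skeletal muscle, had a peak by name in the PBS list only, with a fold enrichment of 3.62 and a log10 p of -11.2. That peak overlapped an OVA peak called on Cacnb1 but assigned to Arl5c, with a fold enrichment of 3.83, so the signal was in both groups. Cacna2d1, the target of gabapentin, had a 3′ UTR peak with a fold enrichment of 13.5 in OVA mice and 11.9 in PBS mice. Cacna2d4, a subunit of the retina, had a peak with 7.53 in OVA mice and 2.93 in PBS mice. The 8 gamma subunit genes had no peak in either list.

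Sodium channel alpha subunits are best known from nerve and muscle. By name, 5 of 10 had peaks in both lists, Scn9a among them. In the OVA list 6 of 10 had a peak and in the PBS list 5 of 10. Over all RefSeq protein-coding symbols the shares were 47.5% and 46.1%. They carried 18 OVA and 15 PBS peaks. The best supported sodium channel peak of both lists bears the name of Scn9a, the channel of pain-sensing neurons, but was called on the adjoining gene Scn7a. The OVA peak spanned 66675372 to 66680292 on chromosome 2, and the PBS peak lay within it, with a log10 p of -2410 in OVA mice and -2420 in PBS mice. The fold enrichments were 8.43 and 6.63. No peak of either list was called on Scn9a, and each of its 4 OVA and 5 PBS peaks was called on Scn7a. By the caller's gene the signal is that of Scn7a, a sodium-sensing channel that is not opened by voltage. Under its own name, Scn7a had a peak over its transcript start with a fold enrichment of 2.66 in OVA mice and 1.96 in PBS mice.

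Scn3a, a channel of the developing brain, had a 3′ UTR peak at 65460117 to 65461647 on chromosome 2 with a fold enrichment of 47.7 and a log10 p of -285 in the OVA list. In the PBS list 2 shorter peaks covered this stretch, with fold enrichments of 16 and 9.83. Scn2a, the channel of axons in the brain, had 5 OVA and 4 PBS peaks, all weakly supported. Its strongest peak by ratio had a fold enrichment of 29.8 in OVA mice and 12.1 in PBS mice, at a log10 p of -9.11 and -6.35. Scn10a, a second channel of pain-sensing neurons, was named in the OVA list only. Its better peak had a fold enrichment of 8.73 and a log10 p of -2.23, and its peaks were called on the adjoining gene Scn11a.

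The beta subunits of sodium channels are also cell adhesion molecules. Among them, Scn3b had a long 3′ UTR peak at 40288634 to 40289917 on chromosome 9, with a fold enrichment of 15.1 and a log10 p of -1410 in the OVA list. In the PBS list the values were 12 and -1690, so that this peak was among the best supported channel peaks of each group. Scn2b had an OVA peak only, with a fold enrichment of 13.3 and a log10 p of -3.70. Scn4b had no peak by name in either list.

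**Figure D3:**
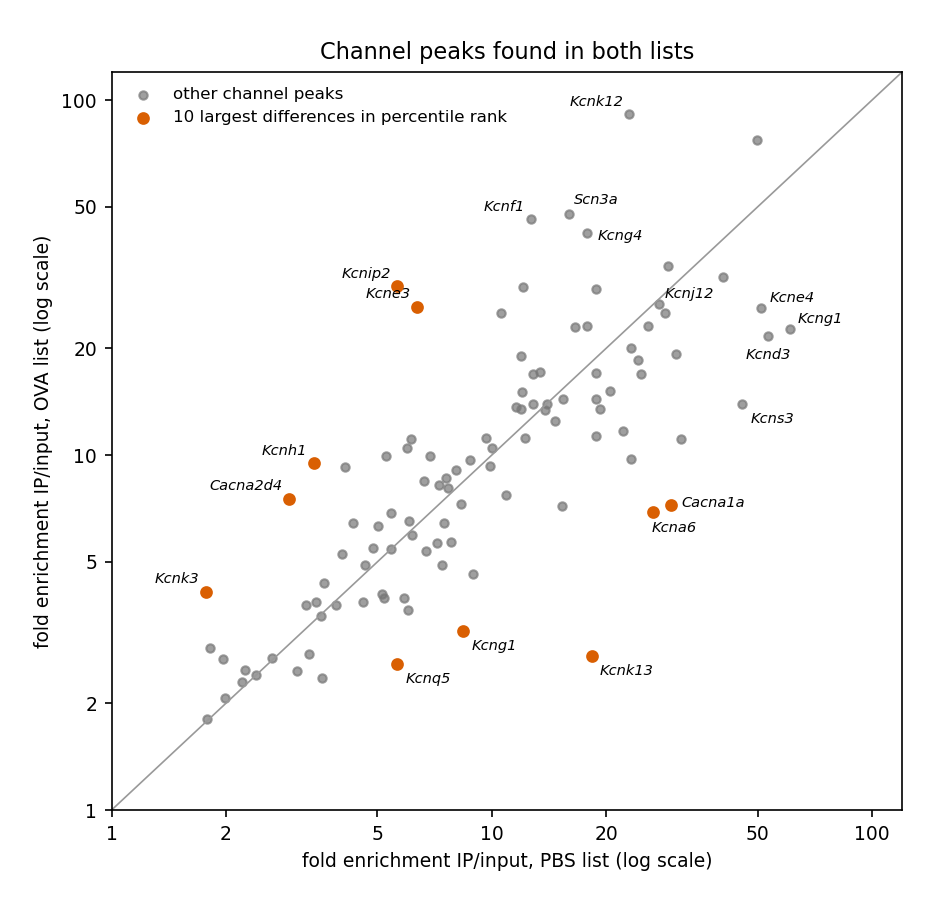
Fold enrichment (IP over input, log scale) of 106 channel peaks matched between the lists, with the PBS list on the x axis and the OVA list on the y axis. Each point is a pair of overlapping peaks that are each other's best match and both bear a channel name. The line marks equal values. Orange points are the 10 pairs with the largest difference in percentile within their lists; 5 of them lie above the line and 5 below it.

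Across all matched peaks, channel genes largely kept their order between the groups and split about evenly by direction. In 106 pairs of peaks that were each other's best match and both bore a channel name, Spearman's rho between the fold enrichments was 0.778. These peaks share libraries and are not independent. Over all 20531 pairs of best matches in the lists, rho was 0.839. By the rank of the p value, rho was 0.848 for the channel pairs and 0.907 for all pairs. The percentile of fold enrichment was higher in the OVA list for 51 channel pairs and in the PBS list for 54, or 50.9% of them. Over all pairs it was higher in the OVA list for 11812 and in the PBS list for 8719, or 42.5%. By the fold enrichments themselves, 54 channel pairs were higher in OVA mice and 51 in PBS mice, beside 12614 and 7819 of all pairs. The percentile differed by over 20 points in 8 channel pairs toward OVA and 9 toward PBS, or 16% of them, beside 15.7% of all pairs, where 1908 lay toward OVA and 1314 toward PBS. The share of widely differing channel peaks, without regard to direction, was near that of the whole lists. Among the 106 pairs, the 10 with the widest gap belonged to Kcnk13, Kcnip2, Kcne3, Kcna6, Cacna1a, Kcng1, Kcnh1, Cacna2d4, Kcnk3 and Kcnq5. A Kcna6 peak whose PBS match was named Gm26673 was outside these pairs, at the 67.5th and 99.6th percentiles in the OVA and PBS lists.

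The choice of gene name mattered for the genes seen in a single list. Of the 5 genes named in the OVA list only, Cacna1s and Scn2b were also confined to it by the caller's gene. Of the 10 named in the PBS list only, 7 were, among them Kcna1, Kcna4, Kcna5, Kcnc4, Kcnk15 and Kcnn2. Kcnb2, Kcnh4, Cacnb1 and Kcnk2 had peaks called on them in both lists. In all, 12 of the 146 OVA channel peaks, or 8.22%, and 15 of the 146 PBS channel peaks, or 10.3%, were called on a gene other than the one named. Over all peaks, 22.5% of the OVA list and 22.8% of the PBS list were assigned to a gene other than the caller's.

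Among 32 channel genes with known roles in airway or lung cells, 25 had a peak by name in at least 1 list, beside 72 of all 132 channel genes and 50.6% of all RefSeq protein-coding symbols, and 23 in both. Counting also peaks called on the gene, 27 did, Kcnq1 being among those added. Scn9a counts here by name, although no peak was called on it. The genes were listed with earlier results of these data known, and many are also known from other tissues. The shares therefore describe this list and do not test whether lung channel genes are marked more often. The genes without any peak included Kcnma1, Kcne1, Kcnj16 and Cacna1g, a T-type calcium channel.

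Sequences are shown for transcript starts that a channel peak covered, since the Kcnk12 peak with the highest OVA ratio lies there and a common m6A motif can be read from it. The letters GGACT, a frequent form of the m6A consensus, were searched on the transcript strand in the first 50 transcribed bases of RefSeq transcripts on GRCm38.p6. They occurred in 1891 of 32851 such windows, or 5.76%, and their reverse complement AGTCC in 1600, or 4.87%. Among windows covered in full by an OVA peak, 47 of 748, or 6.28%, held GGACT and 58, or 7.75%, held AGTCC. Among those covered by a PBS peak, 47 of 716, or 6.56%, held GGACT and 59, or 8.24%, held AGTCC. Covered windows thus held the reverse complement more often than the motif, and GGACT did not stand out in them. Channel genes had 133 windows, for 97 of the 132 genes. The Kcnk12 window held GGACT at bases 35 to 39 of the transcript, inside the peak of both lists. Its bases 21 to 50, on the minus strand at chr17:87797945-87797974, are printed with the motif in capitals.
Kcnk12: ataggggaggaacaGGACTgctcgcacagc
The starts of Kcnj2, Kcnq5 and Scn7a were covered by a peak in both lists and held no GGACT in the window. Their first 30 bases are given for comparison, from chr11:111066164-111066193 on the plus strand, chr1:21961913-21961942 on the minus strand and chr2:66784881-66784910 on the minus strand.
Kcnj2: agagcgcactggagccctggccagcgcgca
Kcnq5: tgggtgtgcacgcgtgcgagcgtgcctccg
Scn7a: gtctgtaggtggtctctgggtctgtggagc
A match describes the letters in the window, not a methylated site, and a peak far longer than the motif can hold it elsewhere.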

How the data were processed

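Ribosome-depleted lung RNA of 6 mice gave 12 libraries, an IP and an input each. Reads were cleaned (FASTP), aligned to mouse (HISAT2, Ensembl), searched for peaks by exomePeak and annotated by ChIPseeker, all by the authors. The use of strand in calling and the way replicates were pooled are not given in the sources used here. The deposited p value and FDR are a score, each a log10 taken from the caller of the authors. The deposited fold enrichment is a ratio, IP to input, computed by the authors. Deposited widths, block numbers and distances have other units, bp or counts, and are also as the authors gave them. The listed starts count from 0, since 649 OVA starts lie 1 base before a RefSeq transcript start and 20 at it, so 1 was added to every start printed. By the caller's gene, 170 of 170 OVA and 166 of 167 PBS channel peaks overlap the RefSeq position of that gene on GRCm38.

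Members were matched by the gene name in the lists. Peaks were called shared when their exonic blocks overlapped by at least 1 bp. Alternatives were the caller's gene, an FDR under 0.05, a fold enrichment of at least 2, protein-coding transcripts only, other overlap rules and merging of overlapping peaks. The 95% intervals of shares are Wilson intervals and cover only the error of counting; medians have distribution-free intervals. Depth per peak is unknown, since no list gives read counts, and a fold enrichment therefore has no interval. No test between the groups was made. Members, gene lists and markers were chosen with earlier results of these data known. Genes named were drawn from the 10 peaks with the highest fold enrichment and the 10 with the lowest p in each list, every gene found in a single list, the 5 genes with the most peaks with ties kept, the 10 matched peaks with the largest percentile difference, and the genes with roles in lung. Motifs were searched only in the windows at transcript starts and not along whole peaks, since no full genome sequence was used here. Software was Python 3.11.15 with pandas 2.3.3, numpy 2.4.6, scipy 1.17.1 and matplotlib 3.10.9, and the overlap code was tested on simulated data.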

Additional observations from a re-analysis of the deposited data

How the results depend on the processing

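Of 80 values recomputed under the alternatives, 66 stayed inside the 95% interval of the main value or, for counts, within 1.5 times of it, and 14 did not. The number of channel genes with a peak in the OVA list only was 5 by name, 3 by the gene on which peaks were called and 8 with a fold enrichment of at least 2. With protein-coding transcripts only, fewer peaks enter by construction, and 77 OVA and 79 PBS channel peaks remained. The 3′ UTR share was then 50.6% in OVA mice and 54.4% in PBS mice, the 5′ UTR share 22.1% and 20.2%, and the share of channel genes with a single peak 57.8% and 60.0%, against 37.1% and 44.8% over all transcripts. The share of channel peaks without a match rose, by the stricter rule itself, to 39.7% in OVA mice and 37.7% in PBS mice with an overlap of 50% of both peaks, and to 91.8% in each list with identical start and end. An FDR under 0.05 and an overlap of genomic spans left every value recomputed under them within those limits. Merging overlapping channel peaks of a list, an alternative chosen after seeing the data, gave 141 OVA and 143 PBS regions.

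No paired analysis was possible because each list pools the replicates of its group, and OVA and PBS libraries share only replicate numbers in their labels. Leave-one-out was not run, since the lists hold no values of single mice. Peak presence depends on reads as well as on methylation, and neither RNA levels nor depth stand in the lists. Intervals cover counting error only, peaks of 1 gene are not independent, and many weak channel peaks rest on calls near the threshold. Lung holds many cell types, whose shares were not measured. Gene assignment near overlapping neighbours remains that of the authors' annotation.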

Other observations

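Other ion channel genes were marked about as often as the channel genes described. Of 102 such genes, 52 had a peak by name in the OVA list, 51 in the PBS list and 46 in both. The genes named here were chosen after their values were seen. The epithelial sodium channel, which absorbs fluid in the airways, had peaks on each of its 3 main subunits. The best supported was that of the gamma subunit Scnn1g, with a log10 p of -1360 in OVA mice and -2870 in PBS mice, at fold enrichments of 14.6 and 10.7. The alpha subunit Scnn1a had a log10 p of -707 in OVA mice and -1260 in PBS mice. Both were thus better supported in the PBS list. Cftr, the chloride channel of airway secretion, had by name fold enrichments of 12.9 in OVA mice and 12.7 in PBS mice. By the caller's gene its highest were 24.9 and 27.0, and its lowest log10 p -516 and -297.

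Calcium entry and release channels were marked at 10 of 13 genes in OVA mice and 9 of 13 in PBS mice. Itpr1, the calcium release channel opened by inositol trisphosphate, had a peak with a fold enrichment of 158 in OVA mice and 80.1 in PBS mice. Stim2, a calcium sensor of the endoplasmic reticulum, had a log10 p of -2230 in each list. Among 28 TRP channel genes, 14 had a peak in OVA mice and 11 in PBS mice. Trpc6, a receptor-operated channel of smooth muscle, had a log10 p of -754 in OVA mice and -1330 in PBS mice. Mcoln2, a lysosomal channel of immune cells, had a fold enrichment of 33.9 and a log10 p of -185 in OVA mice, and of 5.52 and -11.2 in PBS mice. P2rx7, the ATP-gated channel of macrophages, had a fold enrichment of 29.1 in OVA mice and 14.7 in PBS mice. The HCN and CNG channels had 4 of 10 genes marked in OVA mice and 6 of 10 in PBS mice. Chloride channels had 10 of 22 and 11 of 22, Piezo and P2X channels 7 of 9 and 6 of 9, and acid-sensing with epithelial sodium channels 3 of 8 in each list. By the caller's gene, 15 of the 22 chloride channel genes had a peak in each list. The remaining leak, proton, sperm and regulatory genes had 4 of 12 in OVA mice and 5 of 12 in PBS mice.

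Of the peaks called on a channel gene, 6 in OVA mice and 5 in PBS mice were assigned to another channel gene. Those assigned to a gene outside the chosen families numbered 30 in OVA mice and 31 in PBS mice. Kcnj10, the rectifier of glia that pairs with Kcnj16, had 4 such peaks in each list, all assigned to Pigm, with fold enrichments up to 27.7 in OVA mice and 27.6 in PBS mice. Scn4a, the sodium channel of skeletal muscle, had a 3′ UTR peak assigned to Cd79b with a fold enrichment of 16 in OVA mice and 30.1 in PBS mice, at a log10 p of -133 and -27.9. Cd79b is itself a B cell gene, so the name in the lists and the gene on which the peak was called belong to different cells. Kcnn1, a small-conductance calcium-activated channel, had a peak assigned to Arrdc2 with a fold enrichment of 3.85 in OVA mice and 21.5 in PBS mice.

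Some channel peaks shared both their log10 p and their fold enrichment with another peak of the list. This held for 42 OVA channel peaks, or 28.8%, and for 37 PBS channel peaks, or 25.3%, beside 18.2% and 18.8% of all peaks. Of the other markers, 2 of 4 club cell genes had a peak in OVA mice and 1 of 4 in PBS mice, 3 of 6 smooth muscle genes in each, and 2 of 5 macrophage genes in OVA mice and 3 of 5 in PBS mice.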
